A study of Mus musculus with 18 samples.

Results

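The genes followed here are 7 that make, attach and remove the ubiquitin-like protein ISG15 or belong beside it as interferon-induced Trim ligases. They are Isg15, Uba7, Ube2l6, Herc6, Usp18, Trim25 and Trim30a, taken by symbol from the 23453 symbols of the count table, and each had 1 row. The RNA came from B16F10 cells, a melanoma line of C57BL/6J mice, grown in culture or as tumours. In the shHrs groups the cells carried a lentiviral pLKO.1 construct whose shRNA targets Hgs, and in the shCTL groups a lentiviral scrambled shRNA. Infected cells of both kinds had been selected with puromycin or blasticidin. Hgs encodes Hrs, which gathers ubiquitinated membrane proteins on endosomes for sorting. Each of 2 culture batches gave 2 libraries of shHrs and 2 of shCTL cells, and there were 5 tumours of each kind. Tumours grew in wild-type female C57BL/6 mice, 6 to 8 weeks old by the general protocol, so the host cells in them were not knocked down. The labels do not say how many hairpins were used, or whether the cells were a pool or a clone.

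Type I interferon acts through the transcription factor complex ISGF3 to raise a broad set of genes, and Isg15 is among the most responsive of them in many cells. The ISG15 protein is joined to target proteins by a chain of enzymes: Uba7 activates it, Ube2l6 carries it, and in mice Herc6 is the main ligase that transfers it. Usp18 cuts ISG15 from its targets and, apart from that activity, binds the interferon receptor chain Ifnar2 and damps signalling. Trim25 is a ubiquitin ligase best known as a cofactor of the RNA sensor RIG-I, and the human protein can also act as an ISG15 ligase. Trim30a is a mouse Trim protein known to restrain NF-kB signalling.

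The genes lie apart in the genome (GRCm38, the assembly of mm10, GENCODE release 21). All 7 are protein coding. Isg15 lies at chr4:156199424-156200818 on the minus strand and has 2 exon blocks. Uba7 lies at chr9:107975505-107984060 and Ube2l6 at chr2:84798828-84810335, both on the plus strand. Herc6 and Usp18 share chromosome 6, at chr6:57581000-57664632 and chr6:121245906-121270917, both on the plus strand. Trim25 lies at chr11:88999376-89020293 on the plus strand and Trim30a at chr7:104409025-104465193 on the minus strand. Trim30a has close relatives beside it on chromosome 7, so its counts are uncertain to the extent that reads were shared among them. The annotation places an antisense transcript, Gm44148, over 124 of the 2790 exonic bases of Usp18. On the same strand, Gm45193 covers 1269 of the 9292 exonic bases of Herc6 and Gm20661 covers 233 of the 6692 of Uba7. The count table has no row for any of these 3 transcripts, and the sources used here do not give the strand setting of the counting.

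Of the 7 genes, 6 had an entry among RefSeq promoters of GRCm38.p6, and Usp18 had none. The core of the interferon-stimulated response element (GAAA, any 2 bases, then GAAA) was searched on both strands from 250 bases before to 50 bases after each start. It was in 1131 of all 32851 promoters (3.44%). Isg15 held 3 overlapping matches, the first beginning 78 bases before the start. Trim30a has 2 RefSeq starts with 1 match each, on the opposite strand, and at the upstream start the match begins 36 bases before it. Uba7, Ube2l6, Herc6 and Trim25 held 0 matches. The gamma-activated site (TTC, any 3 bases, then GAA) was in 8.30% of all promoters and in 0 of these. A match is a description of letters and not evidence of binding. The search took exact matches of the core only, so a promoter with 0 matches may still hold a variant of the element. The 250 bases before the start are shown 5′ to 3′ along the gene for the modifier and a Trim gene with the motif, and for the activating-enzyme gene and a Trim gene without it, with matches in capitals. The positions are chr4:156200819-156201068 (minus strand) for Isg15, chr7:104465194-104465443 (minus strand) for the upstream start of Trim30a, chr11:88999153-88999402 (plus strand) for Trim25 and chr9:107975317-107975566 (plus strand) for Uba7.
Isg15: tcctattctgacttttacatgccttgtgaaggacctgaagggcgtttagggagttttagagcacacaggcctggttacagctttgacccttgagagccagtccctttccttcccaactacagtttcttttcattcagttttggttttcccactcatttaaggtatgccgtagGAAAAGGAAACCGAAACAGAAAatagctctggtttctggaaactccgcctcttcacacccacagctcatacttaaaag
Trim30a: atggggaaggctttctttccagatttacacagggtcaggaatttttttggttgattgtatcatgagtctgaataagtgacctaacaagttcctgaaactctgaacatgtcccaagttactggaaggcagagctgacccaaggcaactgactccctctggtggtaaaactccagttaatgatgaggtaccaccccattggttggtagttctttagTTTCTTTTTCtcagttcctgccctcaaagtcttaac
Trim25: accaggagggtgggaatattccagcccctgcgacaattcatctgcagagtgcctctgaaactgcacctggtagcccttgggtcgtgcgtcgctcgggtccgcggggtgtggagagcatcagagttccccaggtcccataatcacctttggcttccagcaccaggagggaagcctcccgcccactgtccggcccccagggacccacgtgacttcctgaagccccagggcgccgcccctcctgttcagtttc
Uba7: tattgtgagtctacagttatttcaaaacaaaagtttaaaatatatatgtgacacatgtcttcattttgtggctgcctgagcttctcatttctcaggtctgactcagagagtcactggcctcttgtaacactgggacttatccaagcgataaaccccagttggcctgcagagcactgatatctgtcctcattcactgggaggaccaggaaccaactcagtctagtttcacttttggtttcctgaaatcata

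Levels are given as counts per M (mega) of library size (CPM), with 1 TMM scaling across all 18 libraries, whose total counts ran from 17.6 to 27.7 M. Fold changes are log2 values of shHrs over shCTL from edgeR's quasi-likelihood test, with a standard error (SE) and a p adjusted over all genes tested, where under 0.05 counts as a call. All 7 genes passed the filter on low counts in every fit. Hgs itself averaged 32.8 ± 3.42 CPM in shHrs and 104 ± 13.0 CPM in shCTL cultures of batch 1 (SD, n = 2 each). The batch 2 cultures had 44.5 and 41.3 CPM of Hgs in shHrs and 97.8 and 107 CPM in shCTL. In tumours it was at 16.1 to 29.2 CPM in shHrs and 95.8 to 112 CPM in shCTL. The groups did not overlap in Hgs in either batch or in tumours. Its log2 fold change was -1.67 in batch 1 (adjusted p = 0.103), -1.30 in batch 2 (adjusted p = 0.0268) and -2.28 in tumours (adjusted p = 0.000106), so it missed the threshold in batch 1. The 8 melanoma markers summed to 20889 to 28569 CPM in tumours and to 4438 to 20236 CPM in cultures, and each had counts in the cultures. In batch 2 they summed to 5339 and 4438 CPM in shHrs and 14153 and 11924 CPM in shCTL cultures, without overlap. The 2 shHrs cultures of batch 1 stood apart from each other: replicate 1 was at the control level for Isg15 and Usp18 and replicate 2 was not, while Hgs was at 35.2 CPM in replicate 1 and 30.4 CPM in replicate 2.

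**Figure D1:**
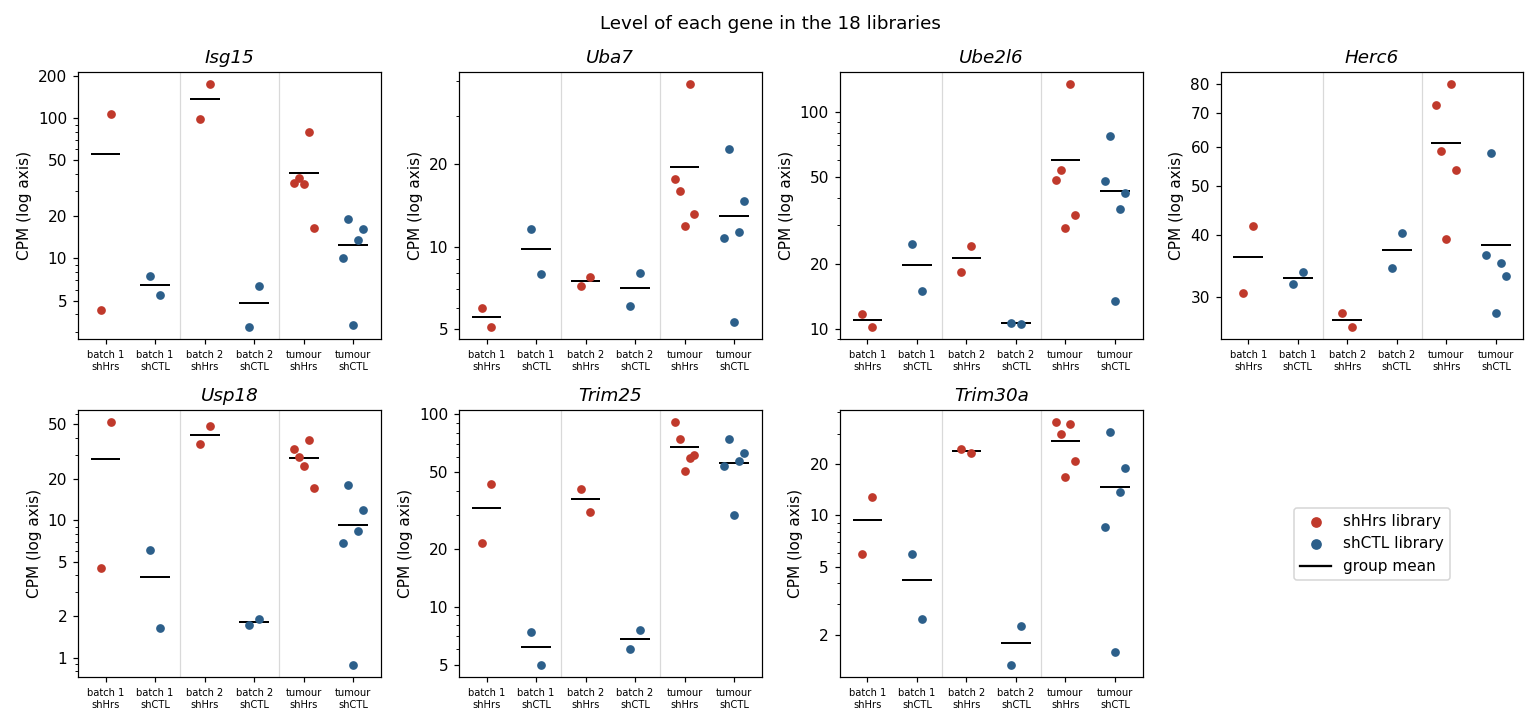
Level of each of the 7 genes in each of the 18 libraries, in CPM on a log axis, with shHrs left of shCTL in culture batch 1, culture batch 2 and tumours; points are single libraries and bars are group means. Isg15, Usp18 and Trim30a of batch 1 show 1 shHrs culture near the controls, while all batch 2 shHrs cultures sit above their controls for Isg15, Usp18, Trim25, Trim30a and Ube2l6.

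In cultured cells, Trim25 and Trim30a rose with Hgs knockdown in batch 2. Isg15 and Usp18 showed larger fold changes there that missed the threshold. The activating, carrying and ligase genes stayed within 2-fold, with none called in the edgeR fit reported, although DESeq2 called Ube2l6 in batch 2. In batch 2, 2 of the 7 genes were called, both higher, against 4.03% of all 12897 genes called in either direction and 1.60% called higher. In batch 1, 0 of the 7 were called, against 0% of all genes. In the fit of both batches together, 0 of the 7 were called, against 0% of all 12617 genes. An unadjusted p under 0.05 was seen for 5 of 7 in batch 1 (9.38% of all genes), of which Isg15, Usp18 and Trim25 were higher in shHrs and Uba7 and Ube2l6 lower. It was seen for 5 of 7 in batch 2 (27.9%) and 4 of 7 in both batches (13.3%). DESeq2 called 1 of 7 in batch 1 (1.70% of all genes), 5 of 7 in batch 2 (15.4%) and 4 of 7 in both batches (2.39%). With limma voom the calls were 0 of 7 in batch 1 (0% of all genes), 2 of 7 in batch 2 (5.00%) and 0 of 7 in both batches (0.0396%). The 7 genes were chosen with earlier results of these data known, and Isg15 and Usp18 were high in the same shHrs cultures. The counts beside shares of all genes are therefore descriptions and not a test of the 7 as a set.

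The modifier gene Isg15 was at 4.31 and 107 CPM in shHrs and 7.53 and 5.46 CPM in shCTL cultures of batch 1. Batch 2 gave 99.0 and 175 CPM in shHrs and 3.24 and 6.34 CPM in shCTL cultures. Of the 4 shHrs cultures, 3 were thus far above every control, and batch 1 replicate 1 was below both controls of its batch. The log2 fold change was 4.79 (SE 1.21, adjusted p = 0.0620) in batch 2, 3.07 (SE 1.12, adjusted p = 0.497) in batch 1 and 3.93 (SE 0.89, adjusted p = 0.268) in both together. Without shHrs replicate 2 the batch 1 value was -0.58, and without replicate 1 it was 4.00 (edgeR adjusted p = 0.00132). In batch 2, leaving out either shHrs culture of batch 1, which enters only through the shared spread, gave adjusted p = 0.000357 and 0.000391.

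Usp18, the protease that removes ISG15, was high in the same 3 shHrs cultures as Isg15. It was at 4.47 and 51.8 CPM in shHrs and 6.12 and 1.65 CPM in shCTL cultures of batch 1. Its batch 2 levels were 35.7 and 48.3 CPM in shHrs and 1.73 and 1.92 CPM in shCTL cultures. Replicate 1 of the batch 1 shHrs cultures lay between its controls, and the other 3 shHrs cultures lay above all controls. The log2 fold change was 4.47 (SE 1.07, adjusted p = 0.0550) in batch 2, 2.81 (SE 0.98, adjusted p = 0.479) in batch 1 and 3.63 (SE 0.78, adjusted p = 0.256) in both. Without shHrs replicate 2 the batch 1 value was 0.20, and without replicate 1 it was 3.68 (edgeR adjusted p = 0.00374). Without batch 1 shHrs replicate 1 the value for both batches was 4.17 and passed (edgeR adjusted p = 0.0142).

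The 3 conjugating enzymes gave much smaller differences. Uba7, the activating enzyme, was at 5.98 and 5.10 CPM in shHrs and 11.6 and 7.94 CPM in shCTL cultures of batch 1. In batch 2 the levels were 7.18 and 7.77 CPM in shHrs and 6.11 and 8.01 CPM in shCTL cultures, where the groups overlap. The log2 fold change was -0.82 (SE 0.34, adjusted p = 0.517) in batch 1 and 0.03 (SE 0.33, adjusted p = 0.955) in batch 2. Over both batches it was -0.39, with a 95% interval of -1.04 to 0.25, an interval that leaves out even a 2-fold increase.
Ube2l6, the carrier, was at 11.7 and 10.2 CPM in shHrs and 24.6 and 14.9 CPM in shCTL cultures of batch 1. Its levels in batch 2 were 18.3 and 24.1 CPM in shHrs and 10.7 and 10.5 CPM in shCTL cultures. It was therefore lower than the controls in 1 batch and higher in the other, without overlap in either. Groups of 2 libraries separate easily, and the share of all genes that did so was not counted. Neither batch effect nor their difference was called in the edgeR fit reported. The log2 fold change was -0.85 (SE 0.31, adjusted p = 0.499) in batch 1 and 0.95 (SE 0.31, adjusted p = 0.101) in batch 2, and the difference between the batches was 1.80 (SE 0.44, adjusted p = 0.0991). In batch 2 Ube2l6 was called by DESeq2 (adjusted p = 0.0415) and by edgeR in a fit of batch 2 alone (adjusted p = 0.00674). It was not called there by limma voom (adjusted p = 0.0983).
Herc6, the ligase, was at 30.5 and 41.6 CPM in shHrs and 31.8 and 33.7 CPM in shCTL cultures of batch 1. The batch 2 cultures had 27.8 and 26.1 CPM in shHrs and 34.3 and 40.2 CPM in shCTL cultures. The groups overlapped in batch 1 (log2 fold change 0.13, SE 0.23, adjusted p = 0.875), and in batch 2 the shHrs cultures lay below the controls without passing the test (-0.51, SE 0.23, adjusted p = 0.193). Its log2 fold change over both batches was -0.19, with a 95% interval of -0.64 to 0.26.

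Trim25 differed from Isg15 and Usp18 in that every shHrs culture was above every control. It was at 21.3 and 43.3 CPM in shHrs and 7.42 and 4.96 CPM in shCTL cultures of batch 1. Levels in batch 2 were 40.9 and 31.1 CPM in shHrs and 6.02 and 7.59 CPM in shCTL cultures. The log2 fold change was 2.36 in each batch, with SE 0.40 and adjusted p = 0.149 in batch 1 and SE 0.39 and adjusted p = 0.0264 in batch 2. In both batches together it was 2.36 (SE 0.28, adjusted p = 0.0502), just short of the threshold, and the effects of the batches differed by -0.01 with a 95% interval of -1.22 to 1.20.
Trim30a was at 5.92 and 12.8 CPM in shHrs and 5.89 and 2.48 CPM in shCTL cultures of batch 1. Batch 2 cultures stood at 24.3 and 23.1 CPM in shHrs and 1.32 and 2.25 CPM in shCTL cultures. The groups were close in batch 1, where the log2 fold change was 1.14 (SE 0.51, adjusted p = 0.540), and far apart in batch 2, where it was 3.68 (SE 0.56, adjusted p = 0.0229). The difference between the batches, 2.54 (SE 0.73, adjusted p = 0.130), was not called. Across all 7 genes the batch difference was called in 0, against 0.155% of all genes, and with limma voom also in 0, against 0.101%, while 2 (Ube2l6 and Trim30a) had an unadjusted p under 0.05, as did 20.3% of all genes, and DESeq2 called these 2, with 7.55% of all genes. The batch 2 calls of Trim25 and Trim30a were lost when any 1 of the 4 batch 2 libraries was left out, at adjusted p from 0.118 to 0.289 for Trim25 and from 0.117 to 0.289 for Trim30a, and then 0 genes of the whole table were called in batch 2. In that batch the summed melanoma markers were also lower in both shHrs cultures (5339 and 4438 CPM) than in both shCTL cultures (14153 and 11924 CPM), and their part in the batch 2 results was not tested.

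**Figure D2:**
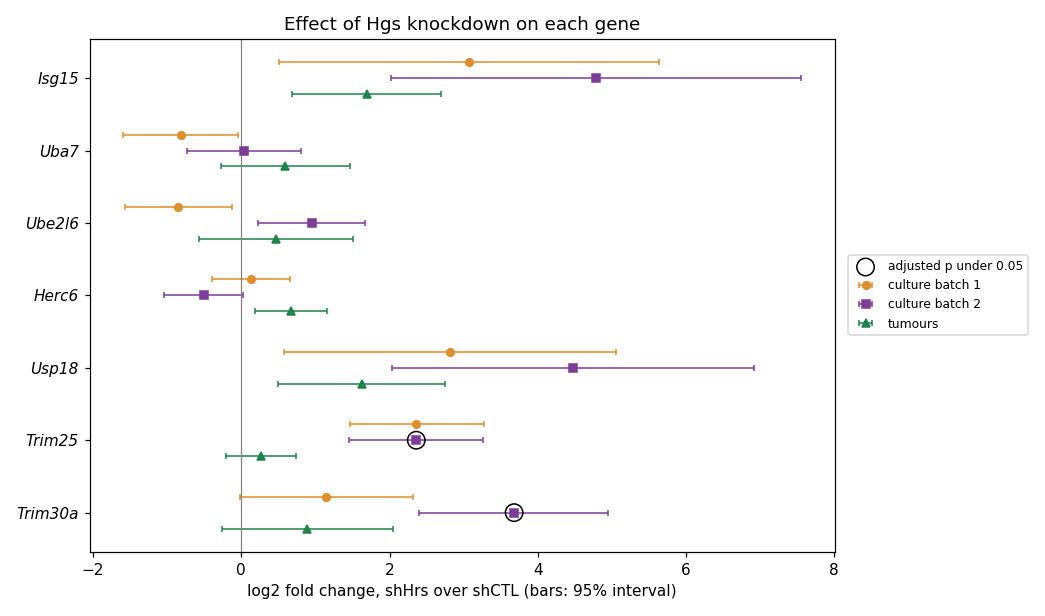
Log2 fold change of shHrs over shCTL for each of the 7 genes in culture batch 1 (circles), culture batch 2 (squares) and tumours (triangles), with 95% intervals from edgeR's test; black rings mark adjusted p under 0.05. Rings stand at Trim25 (2.36) and Trim30a (3.68) of batch 2, and the tumour value of Trim25 (0.27) lies far left of its culture values.

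The balance between the modifier and its enzymes can be read within each library, where scaling cancels. The ratio of Isg15 counts to Uba7 counts was 0.721 and 21.0 in shHrs and 0.651 and 0.688 in shCTL cultures of batch 1, and 13.8 and 22.6 in shHrs and 0.530 and 0.792 in shCTL cultures of batch 2. In tumours it ranged from 1.26 to 2.85 in shHrs and from 0.626 to 1.19 in shCTL, with no overlap. The ratio to Ube2l6 gave the same separation in tumours, at 0.494 to 1.16 in shHrs and 0.211 to 0.381 in shCTL. Against Herc6 the tumour groups overlapped, at 0.308 to 1.00 in shHrs and 0.120 to 0.487 in shCTL. The separation was not limited to these enzymes: the ratio to Trim25 ran from 0.271 to 1.36 in shHrs and from 0.111 to 0.259 in shCTL tumours. Against Trim30a the tumour groups overlapped. Each ratio also carries the higher Isg15 of most shHrs tumours, and how often Isg15 ratios to other genes separate was not counted. These ratios are descriptions with no test, and they depend on gene length.

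**Figure D3:**
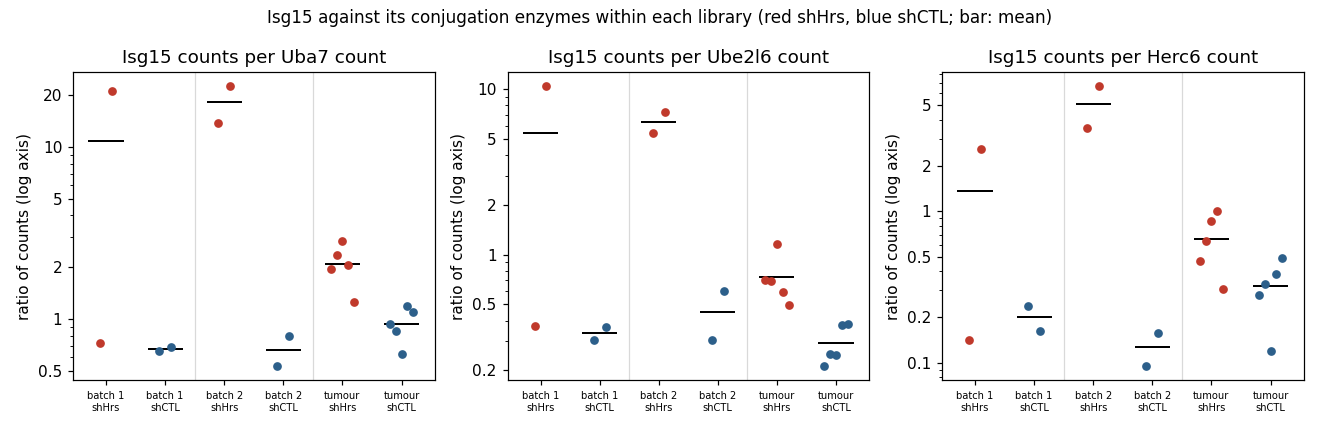
Ratio of Isg15 counts to the counts of Uba7, Ube2l6 and Herc6 within each library, on a log axis, with shHrs left of shCTL in each batch and in tumours; points are libraries and bars are group means. The Isg15 to Uba7 ratio of shHrs tumours (1.26 to 2.85) lies above that of shCTL tumours (0.626 to 1.19).

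Per kilobase of exonic length, Isg15 had the highest mean level of the 7 genes in shHrs cultures of batch 2, at 182 ± 71.5 CPM per kilobase (SD, n = 2), and in shHrs tumours, at 53.5 ± 31.3 (SD, n = 5). In shHrs cultures of batch 1 its mean was 73.7 ± 96.2 CPM per kilobase (SD, n = 2), which came almost wholly from replicate 2. In shCTL cultures of batch 2 Isg15 also had the highest mean, at 6.33 ± 2.90 CPM per kilobase (SD, n = 2). Ube2l6 followed there at 5.31 ± 0.0557. In shCTL cultures of batch 1 Ube2l6 was at 9.88 ± 3.43 and Isg15 followed at 8.59 ± 1.94 (SD, n = 2 each). In shCTL tumours Ube2l6 came first, at 21.7 ± 11.5 CPM per kilobase, and Isg15 followed at 16.5 ± 8.07 (SD, n = 5 each), a difference within their spread. Uba7 came last in tumours of both kinds, at 2.92 ± 1.67 CPM per kilobase in shHrs and 1.94 ± 0.950 in shCTL (SD, n = 5 each). The length used was that of all annotated exons of a gene merged, 6692 bases for Uba7. It can exceed the length of the RNA made, so the order of the genes depends on this choice.

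In tumours, each of the 7 genes had a positive fold change in the fit reported, and the share of all genes with a positive value was not counted. The 7 varied together in tumours. Without shHrs tumour 4 and shCTL tumour 3, chosen after seeing the data, Uba7 was at -0.03 and Ube2l6 at -0.31. In the fit reported, 0 of the 7 were called by edgeR, against 0.545% of 13215 genes. Unadjusted p was under 0.05 for 3 (Isg15, Usp18 and Herc6), against 14.1% of all genes. DESeq2 called 1 (Isg15, adjusted p = 0.0341), against 3.94%, and limma voom called 0, against 0.590%. The median log2 fold change of the 7 was 0.67, beside 0.01 for all genes. In these bulk pieces, fewer cells of a type and less RNA per cell cannot be told apart.
Isg15 was at 34.2, 37.5, 33.8, 80.1 and 16.6 CPM in shHrs and 10.1, 19.2, 3.34, 13.5 and 16.1 CPM in shCTL tumours. Only shHrs tumour 5 lay within the range of the controls. The log2 fold change was 1.70 (SE 0.46, adjusted p = 0.127).
Usp18 was at 32.9, 29.0, 24.9, 38.4 and 17.3 CPM in shHrs and 6.8, 18.1, 0.879, 8.34 and 11.8 CPM in shCTL tumours, with a log2 fold change of 1.63 (SE 0.51, adjusted p = 0.172). Here too shHrs tumour 5 was the 1 that overlapped, lying below shCTL tumour 2.
Herc6, not called in culture, was at 72.6, 58.9, 39.2, 80.1 and 53.9 CPM in shHrs and 36.4, 58.2, 27.9, 35.1 and 33.1 CPM in shCTL tumours. Its log2 fold change was 0.67 (SE 0.22, adjusted p = 0.195), and shCTL tumour 2 lay among the shHrs tumours.

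The remaining genes overlapped widely between the tumour groups. Trim30a was at 35.0, 29.7, 16.8, 34.2 and 20.8 CPM in shHrs and 8.5, 30.6, 1.58, 13.7 and 18.9 CPM in shCTL tumours, with a log2 fold change of 0.89 (SE 0.53, adjusted p = 0.499). Ube2l6 was at 48.5, 53.8, 29.2, 134 and 33.6 CPM in shHrs and 48.1, 77.0, 13.4, 35.7 and 42.4 CPM in shCTL tumours, with a log2 fold change of 0.47 (SE 0.47, adjusted p = 0.720). Most of the spread of Ube2l6 lay in shHrs tumour 4 and shCTL tumour 3.
Uba7 was at 17.6, 16, 11.9, 39.1 and 13.2 CPM in shHrs and 10.8, 22.6, 5.33, 11.3 and 14.7 CPM in shCTL tumours, with a log2 fold change of 0.59 (SE 0.40, adjusted p = 0.560). Trim25 was at 90.4, 73.6, 50.8, 58.8 and 61.3 CPM in shHrs and 53.7, 74.2, 30.0, 57.1 and 62.3 CPM in shCTL tumours, with a log2 fold change of 0.27 (SE 0.22, adjusted p = 0.648). In shCTL libraries, Trim25 was at 30.0 to 74.2 CPM in tumours and at 4.96 to 7.59 CPM in cultures, a difference that was not tested.

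White blood cells also express these genes, and the tumours differed in how many leukocyte transcripts they held. The 6 leukocyte markers, all in the table, summed to 122, 110, 98.3, 307 and 80.6 CPM in shHrs and 89.1, 152, 60.4, 119 and 189 CPM in shCTL tumours. None of the 6 was at 0 in a tumour. The groups overlapped (difference of log2 means 0.17, exact permutation p = 0.730, two-sided, n = 5 each, adjusted p = 0.934 over 11 marker lists). The 12 macrophage markers summed to 218 to 1043 CPM in shHrs and 39.7 to 609 CPM in shCTL tumours (exact permutation p = 0.349, adjusted p = 0.917), and 11 of 12 had a higher mean in shHrs. The 10 T and NK cell markers summed to 2.09 to 30.0 CPM in shHrs and 0.293 to 8.02 CPM in shCTL tumours (exact permutation p = 0.500, adjusted p = 0.917). Each of the 10 had a higher mean in shHrs, but 6 of them were at 0 in a tumour. The highest sum of both lists, 1043 and 30.0 CPM, was in shHrs tumour 4. The median sum was 343 CPM in shHrs and 296 CPM in shCTL for macrophage markers. For T and NK cell markers it was 4.45 CPM in shHrs and 4.78 CPM in shCTL. The 5 skeletal muscle markers summed to 15.6 to 637 CPM in shHrs and 4.98 to 157 CPM in shCTL tumours, with each of the 5 higher in mean and a difference of log2 means of 2.66 (exact permutation p = 0.0794, adjusted p = 0.437). Among the 11 lists the smallest p was for erythroid markers, at 27.7 to 146 CPM in shHrs and 57.4 to 1844 CPM in shCTL tumours (exact permutation p = 0.0317, adjusted p = 0.349), where groups of 5 allow no p below 0.00794.
The tumour with the highest leukocyte sum, shHrs 4, had the highest Isg15, Uba7, Ube2l6, Herc6 and Usp18, and the tumour with the lowest, shCTL 3, had the lowest level of all 7 genes. Without these 2 tumours, a choice made after seeing the data, the log2 fold change was 1.03 for Isg15, 1.19 for Usp18, 0.45 for Herc6, 0.50 for Trim30a, 0.15 for Trim25, -0.03 for Uba7 and -0.31 for Ube2l6, with 0 called. The part of leukocytes, muscle or erythroid cells in the tumour differences was not tested. In the 8 cultures the leukocyte markers summed to 3.18 to 16.7 CPM and the macrophage markers to 3.23 to 35.0 CPM. The leukocyte marker Cd53 had 0 counts in all 8 cultures and Ptprc was at most 0.137 CPM, while the other 5 leukocyte markers had counts in at least 1 culture. Of the 12 macrophage markers, 4 had 0 counts in all 8.

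**Figure D4:**
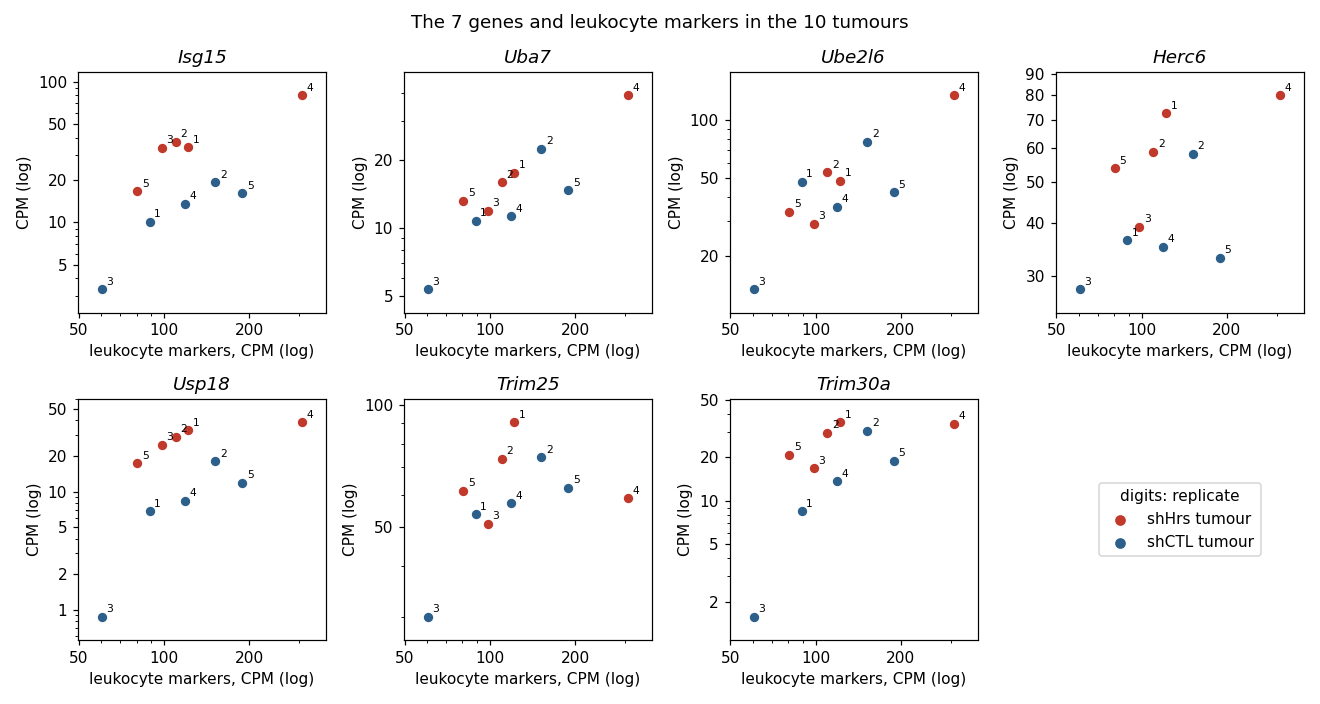
Level of each of the 7 genes in CPM against the summed CPM of 6 leukocyte markers in the 10 tumours, both on log axes, with red shHrs and blue shCTL points numbered by replicate. The shHrs tumour 4 (307 CPM of markers) and shCTL tumour 3 (60.4 CPM) lie at the ends of the marker axis.

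The effect in tumours was set against the mean effect of both culture batches in a fit of all 18 libraries. Trim25 was the 1 gene of the 7 called, against 3.61% of 14458 genes called in either direction and 1.49% called lower. Its effect in tumours minus that in cultures was -2.12 on the log2 scale (SE 0.36, adjusted p = 0.00684). The shCTL level of Trim25 was also higher in tumours, which hold host cells without the knockdown, and the part of this was not tested. The voom fit also called it alone among the 7, against 3.18% of all genes, as did DESeq2, against 9.65%, and an unadjusted p under 0.05 was seen for 4 of 7 (Trim25, Isg15, Usp18 and Herc6), against 21.0%. The call held under every alternative tried for this comparison, with edgeR, DESeq2 or voom adjusted p from 3.9e-06 to 0.0270. For Isg15 the difference was -2.27 (SE 0.91, adjusted p = 0.162), for Usp18 -2.05 (SE 0.91, adjusted p = 0.208) and for Trim30a -1.54 (SE 0.76, adjusted p = 0.260). Herc6 differed the other way, by 0.84 (SE 0.30, adjusted p = 0.119). Without batch 1 shHrs replicate 1, Isg15 (-2.74, adjusted p = 0.0114) and Usp18 (-2.49, adjusted p = 0.0381) were also called. Without batch 1 shHrs replicate 2 they were at -0.43 and -0.73, with edgeR adjusted p of 0.813 and 0.674, and without tumour shCTL replicate 2, Herc6 was (1.04, adjusted p = 0.0488).

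Other genes of the pathway were read from 5 lists, in batch 2 of the cultures unless stated, where all calls in these lists were higher in shHrs; of all genes, 4.03% were called there in either direction and 1.60% higher. Each of these calls was lost when any 1 batch 2 library was left out. The median log2 fold change in batch 2 was 0.46 for the interferon receptor to ISGF3 list, 0.56 for the RIG-I list, 0.36 for other Trim genes, 0.22 for other genes of ISG15 biology and -0.07 for the ubiquitin paralogues, beside 2.36 for the 7 genes and -0.05 for all genes. Of 8 genes of the pathway from the interferon receptor to ISGF3, 1 was called: Irf9, the DNA-binding part of ISGF3, at 45.4 and 48.0 CPM in shHrs and 6.61 and 6.97 CPM in shCTL (log2 fold change 2.73, SE 0.51, adjusted p = 0.0329). Stat2 (0.71, adjusted p = 0.291) and Irf7 (3.00, adjusted p = 0.0758) were not called.
Of 7 tested genes around RIG-I, 1 was called: Dhx58, a regulator of RIG-I-like receptors, at 9.14 and 12.7 CPM in shHrs and 2.05 and 1.42 CPM in shCTL (2.60, SE 0.42, adjusted p = 0.0251). Ddx58, which encodes RIG-I, was at 99.7 and 98.4 CPM in shHrs and 17.1 and 23.2 CPM in shCTL and just missed (2.25, SE 0.52, adjusted p = 0.0521).
Of 18 other Trim genes tested, 3 were called: Trim12c (3.47, adjusted p = 0.0268), Trim21, an antibody receptor inside cells (1.74, adjusted p = 0.0317), and Trim34a (4.19, adjusted p = 0.0268). The last was scarce, at 70 and 92 counts in shHrs and 5 and 3 counts in shCTL cultures. Trim30d, a relative of Trim30a, was not called (3.56, adjusted p = 0.0589). Trim12c, Trim34a, Trim21 and Trim30d were among the 7 of 21 other Trim genes with a RefSeq promoter that held the interferon-stimulated response element core, against 3.99% of all 27025 genes.

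Genes that share the chemistry of ISG15 conjugation but serve ubiquitin were measured beside them. Of 7 such paralogues, 1 was called in batch 2: Herc3, a relative of Herc6 (1.27, SE 0.24, adjusted p = 0.0328), whose value in batch 1 was -0.69 (adjusted p = 0.465). Uba1, the activating enzyme of ubiquitin, had a log2 fold change of 0.11 (SE 0.15, adjusted p = 0.772) over both batches, and Ube2l3, the closest relative of Ube2l6, had 0.11 (SE 0.15, adjusted p = 0.773). In tumours both were at -0.03, with 95% intervals of -0.26 to 0.19 for Uba1 and -0.19 to 0.13 for Ube2l3. Of 10 other tested genes of ISG15 biology, 1 was called in batch 2: Usp2, a deubiquitinase, at 49.2 and 49.1 CPM in shHrs and 14.1 and 16.1 CPM in shCTL (1.65, SE 0.23, adjusted p = 0.0229). Arih1, a ubiquitin ligase that can work with Ube2l6, was at -0.18 (adjusted p = 0.649).
In batch 1, in both batches together and in tumours, 0 genes of these lists were called by edgeR. The tumour effect minus the culture effect was called for 1, Trim28 (-0.76, adjusted p = 0.0288), a co-repressor of transcription.

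Within groups, the 7 genes varied together in tumours and less uniformly in cultures. Over the 10 tumours, with each value of log2(CPM + 2) taken as a deviation from its group mean, Pearson's r of each gene with the mean of the other 6 was 0.88 for Isg15, 0.93 for Uba7, 0.91 for Ube2l6, 0.79 for Herc6, 0.94 for Usp18, 0.76 for Trim25 and 0.92 for Trim30a. Genes outside the 7 were compared with their mean, in tumours and in cultures, if the log2 of the gene's mean CPM was at least 1. Predicted and clone-named genes were left out. In tumours the closest of those compared were Apol9a, Ddx60, Rtp4, Ifit3 and Trim12c, each with r of 0.99. Over the 8 cultures, r was 0.09 for Uba7 and 0.11 for Ube2l6, and from 0.76 to 0.97 for the other 5 genes. The closest genes there were Mxi1, Pnrc2, Ghitm, Rdm1 and Angptl6, but 81.4% of the squared deviation came from the pair of batch 1 shHrs cultures, so the culture pattern is largely the contrast of those 2 libraries. These values share libraries, depth and the tumours' leukocyte content and are given without a test.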

How the data were processed

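RNA was sequenced from 8 culture and 10 tumour libraries. The authors deposited 1 table of raw, unscaled counts for 23453 gene symbols, and every column was used. The library kit was NEBNext Ultra with paired reads, per the labels' protocols. The submitters' processing notes name STAR 2.4.0h2, DESeq and mm10. How reads were counted (tool, annotation, strand) is not given in the sources used here. Libraries are described as biological repeats, per the labels, with no cultures or mice named, so p-values measure the spread between libraries, which may be partly technical. Libraries of a group differed by more than sampling noise (chi-square per degree of freedom 13.8 to 209) and each was kept as a replicate.

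Counts were filtered by filterByExpr (minimum count 10), scaled by TMM and tested with edgeR 4.0.16 in R 4.3.3, by the two-sided quasi-likelihood F test with Benjamini-Hochberg adjustment over all genes at 0.05. The 8 cultures were fitted with a batch term for the joint effect, and with 4 group means for each batch and the batch difference. The tumours were fitted on their own, and the tumour effect minus the culture effect in a fit of all 18 libraries. Alternatives used DESeq2 1.42.0, limma 3.58.1 (voom), other scaling or filtering, a replicate block and each library left out. The procedure was tested on simulated data. The simulated counts held no batch or culture-to-tumour difference and no library set apart from its group, so the test did not cover those features. Printed CPM were computed from the counts.

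The 7 genes and all lists were chosen with earlier results of these data known. Genes named are the 7, Hgs, called list genes (at most 6 per list), 12 fixed comparison genes where informative (1 of them is not reported here), the 5 genes closest in pattern, and single markers. Of 140 list entries, 4 were absent from the table.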

Additional observations from a re-analysis of the deposited data

Results flagged for a closer look

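Trim25 had a smaller log2 fold change in tumours than in cultures: the difference between the effects, -2.12 on the log2 scale, passed an interaction test (edgeR adjusted p = 0.00684). In shCTL libraries Trim25 averaged 55.5 CPM in tumours, which hold host cells without the knockdown. In shCTL cultures it averaged 6.19 CPM in batch 1 and 6.81 CPM in batch 2. The part of this in the difference was not tested. Hgs itself had a larger decrease in tumours, with a difference of -0.82 (SE 0.21, adjusted p = 0.0407), and that call was lost under 15 alternatives, with adjusted p up to 0.109.

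In 3 groups, 1 tumour lay far from the others of its group by Dixon's test: Uba7 in shHrs tumour 4 (39.1 CPM), Ube2l6 in shHrs tumour 4 (134 CPM) and Herc6 in shCTL tumour 2 (58.2 CPM). Among 16 groups tested, chance flags about 1 in 20. The shHrs tumour 4 also had the highest leukocyte marker sum, 307 CPM, and the part of this in its levels was not tested.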

How the results depend on the processing

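Of 768 values for single genes (the 7 and Hgs) under alternatives, 666 kept their direction and their side of the threshold, 27 fell short of it, 54 newly passed it and 21 changed sign. The number of the 7 genes called was 4 with no filter, 4 with DESeq2, 1 with no batch term and 0 to 3 with a library left out, against 0, in both batches; 3 with no filter, 1 with DESeq2 and 0 to 3 with a library left out, against 0, in batch 1; and 4 with no filter, 5 with DESeq2, 5 in a fit of batch 2 alone and 0 to 5 with a library left out, against 2, in batch 2. For the batch difference it was 2 with no filter, 2 with DESeq2 and 0 to 3 with a library left out, against 0. In tumours it was 1 with DESeq2, against 0, and for tumours minus cultures 1 to 3 with a library left out, against 1. The cause was not tested.

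Values that changed sign were mostly under 1 in size, apart from Isg15 in batch 1 (3.07 as reported, and -0.58 without shHrs replicate 2). With a library left out, Ube2l6 ranged from -0.20 to 0.36 in both batches, Isg15 from -0.58 to 4.00 and Herc6 from -0.09 to 0.30 in batch 1, Uba7 from -0.14 to 0.23 in batch 2, and Ube2l6 from -0.08 to 0.78 in tumours and from -0.16 to 0.70 for tumours minus cultures. The batch difference of Trim25 was 0.02 with DESeq2 size factors, 0.03 with no filter, 0.02 with DESeq2, 0.04 with voom, 0.05 with the replicate block, and -0.37 to 0.56 with a library left out. Without shHrs tumour 4 and shCTL tumour 3, chosen after seeing the data, Uba7 was at -0.03 and Ube2l6 at -0.31 in tumours, and Ube2l6 at -0.37 for tumours minus cultures.

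Replicate numbers are not stated to pair the libraries. Deviations of same-numbered libraries correlated at 0.175 in batch 1 and 0.0229 in batch 2. A group of 2 libraries has mirrored deviations, so such a value cannot decide whether numbers pair the cultures. In tumours, same-numbered libraries correlated between -0.588 and 0.462, and differently numbered ones between -0.575 and 0.608. With the replicate block the number of the 7 genes called stayed at 0 in both batches, 0 in batch 1, 2 in batch 2, 0 for the batch difference, 0 in tumours and 1 for tumours minus cultures. Over all genes, calls in batch 2 ranged from 464 to 4303 over settings (520 in the fit reported) and from 0 to 2732 with a library left out; in tumours they ranged from 2, with the block, to 521, with DESeq2 (72 reported); in both batches DESeq2 called 301, against 0; in batch 1 they reached 438, against 0; for the batch difference they ran from 13 to 1311 (20 reported), and for tumours minus cultures from 281 to 1395 (522 reported). Low counts, as for Trim34a, limit precision further.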

Other observations

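The ratio of Isg15 counts to counts of Usp18, the protease that removes ISG15, was 0.964 and 2.07 in shHrs and 1.23 and 3.30 in shCTL cultures of batch 1, and 2.77 and 3.63 in shHrs and 1.87 and 3.30 in shCTL cultures of batch 2. In tumours it ran from 0.960 to 2.09 in shHrs and from 1.06 to 3.80 in shCTL. In each of the 3 settings the ranges of shHrs and shCTL overlapped. Within shCTL tumours it spanned more than the Isg15 to Uba7 ratio, which ran from 0.626 to 1.19 there. These are descriptions of single libraries with no test.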
